A study of Homo sapiens with 12 samples.

Results

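The change in translational efficiency after 60 min of GSK-A1 was measured for 10437 transcripts of HEK293T cells, out of 18338 transcripts counted anywhere in the series. A transcript was included when its counts summed to at least 20 over the 4 libraries of ribosome-protected fragments (RPF) at 0 and 60 min, and also to at least 20 over the 4 mRNA libraries of those times. Of the others, 608 reached the minimum in RPF alone, 1241 in mRNA alone and 6052 in neither assay. At the edge of the rule, 160 included transcripts had exactly 20 counts in their weaker assay, and 139 transcripts missed it by a single count. The included transcripts held between 96.3% and 98.4% of the counts of each of the 8 libraries compared.

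HEK293T is an established human embryonic kidney line carrying the SV40 large T antigen. All cells were labelled wild type and all libraries carried the same treatment label, GSK-A1, an inhibitor of the lipid kinase PI4KA, so the 0 min libraries are the reference only through the time in their names. Each of the 4 groups compared (RPF at 0 min, RPF at 60 min, mRNA at 0 min and mRNA at 60 min) had 2 replicates. Nothing in the labels says whether these came from separate cultures, so p-values rest on a spread between replicate libraries that may be technical. That spread was estimated from all 12 libraries of the series and was in part shared across transcripts.

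Translation is regulated mostly at initiation, and a cell can alter the output of an mRNA within minutes without altering its amount. Well-known cases are mRNAs with a terminal oligopyrimidine start, which follow mTOR activity, and mRNAs with upstream open reading frames such as that of ATF4, which are translated more when eIF2 is phosphorylated. Footprint density divided by mRNA abundance, called translational efficiency (TE), separates such control from a change in the mRNA itself, because a change shared by both assays cancels. PI4KA makes phosphatidylinositol 4-phosphate at the plasma membrane, the precursor of the phosphoinositides that feed growth factor signalling. The deposited tables name Ensembl transcripts only, and the gene name tables used here held 0 of the 18338 identifiers. Transcripts are therefore described by identifier and by measured class, and gene names, gene families and markers of the cell line were not analysed here.

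Neither the mRNA nor the RPF libraries grouped by time. The 8 libraries held between 655623 and 1165740 counts, and the median included transcript had between 22 and 34 counts per library. Across the 6310 transcripts counted 10 or more times in every one of these libraries, log2 CPM (counts scaled to a common library size, as counts per 1000000 with TMM factors) of the mRNA replicates correlated at 0.861 at 0 min and 0.884 at 60 min. Replicate 1 of 0 min was closer to replicate 2 of 60 min (0.945) and to replicate 1 of 60 min (0.922) than to its own replicate. Replicate 2 of 0 min had its lowest correlation with replicate 2 of 60 min, at 0.818. The RPF replicates correlated at 0.923 at 0 min and 0.929 at 60 min, and RPF pairs from different times lay between 0.896 and 0.944. RPF replicate 1 of 60 min was closer to both RPF libraries of 0 min (0.940 and 0.944) than to its own replicate. These correlations are across transcripts, which share a library's depth and are not independent replicates. Whether the time and replicate labels of the mRNA libraries are right could not be settled from the values used here. Every mRNA and TE value follows those labels as deposited.

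The arrangement of the mRNA libraries reached the efficiency change of single transcripts. TE changes were computed from libraries numbered 1 and from those numbered 2, separate libraries matched across assays and times by number alone. The Pearson correlation of these 2 sets of TE changes over the 10437 transcripts was −0.200 (Spearman −0.162). They had the same sign for 4629 transcripts, 44.4% of the total. The RPF part of the change correlated at 0.0848 between the replicate numbers, with the same sign for 53.9% of transcripts, and the mRNA part correlated at −0.336, with the same sign for 39.5%. Among the 1366 transcripts counted 50 or more times in all 8 libraries, the values were −0.436 for TE, 0.206 for RPF and −0.677 for mRNA. The opposition between replicate numbers thus lay in the mRNA libraries, and it was larger for the transcripts with more counts.

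**Figure D1:**
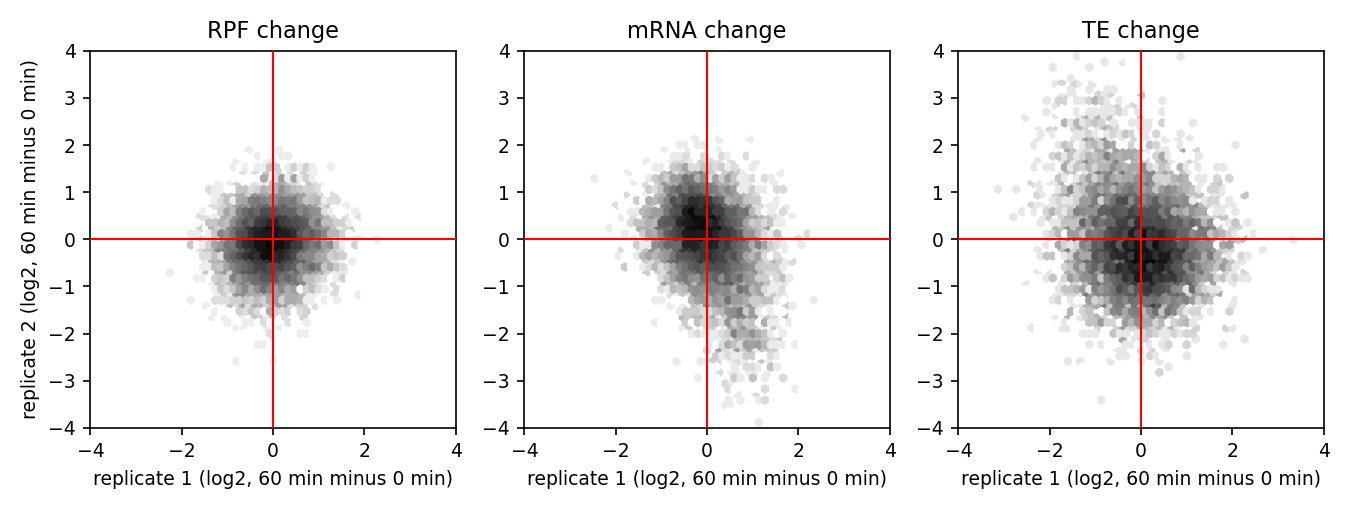
Log2 change from 0 to 60 min in replicate 2 (vertical axis) against replicate 1 (horizontal axis) for 10437 transcripts, for RPF, mRNA and TE; darker cells hold more transcripts on a log scale, red lines mark 0, and 8 transcripts in the mRNA panel and 22 in the TE panel lie beyond the axes. RPF changes form a round cloud (r = 0.0848), whereas mRNA changes extend to positive values in replicate 1 with negative values in replicate 2 (r = −0.336).

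The most opposed transcripts were described as a class. For 352 transcripts, the mRNA log2 change was above 1 in replicate 1 and below −1 in replicate 2, against 61 with the opposite arrangement, 52 above 1 in both and 22 below −1 in both. At 0 min, the median mRNA level of the 352 was 17.9 and 76.5 CPM in replicates 1 and 2, and at 60 min it was 49.4 and 16.5 CPM. Replicate 2 of 0 min was the highest of the 4 mRNA libraries for 271 of them. Their median RPF level stayed between 19.7 and 26.4 CPM in the 4 RPF libraries, and the median TE change of the class was −1.59 in replicate 1 and 2.00 in replicate 2. This class was defined from the values, so the figures describe it and test nothing. The opposition was not limited to it: over the other 10085 transcripts the changes of the replicate numbers correlated at −0.215 in mRNA and −0.104 in TE, and the mRNA changes had the same sign for 40.8%. In RPF, only 31 transcripts were above 1 in replicate 1 and below −1 in replicate 2, and 21 the reverse.

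No transcript passed the test for a TE change at 60 min. In edgeR's quasi-likelihood test of the interaction between assay and time, 0 of 10437 transcripts (0%) reached an adjusted p-value of 0.05 (Benjamini-Hochberg), and the smallest adjusted p-value was 0.9999. DESeq2 also called 0. Before adjustment, 204 transcripts (1.95%) had an edgeR p-value under 0.05, 86 with higher (0.824%) and 118 with lower TE (1.13%). This is below the 5% that the threshold allows when nothing changes. A share this low can mean that the test is conservative in these libraries, which was not tested. It does not show that nothing changed. DESeq2 had 74 higher and 35 lower at the same threshold, so the majority direction differed between the tools. With RLE size factors in place of TMM, edgeR had 101 higher and 104 lower. The split also turned on single libraries. Transcripts with higher TE became the majority without RPF 0 min replicate 2 (148 higher, 82 lower), without RPF 60 min replicate 2 (73 and 50) and without mRNA 60 min replicate 1 (157 and 95). The numbers were 38 higher and 125 lower without mRNA 0 min replicate 2, 164 and 200 without mRNA 0 min replicate 1, and 63 and 78 without RPF 0 min replicate 1. No majority direction is therefore drawn from these transcripts. The median fitted log2 TE change was −0.05, with quartiles of −0.46 and 0.38. Because each assay was scaled to its own library totals, a shift shared by all transcripts is removed. TE here is thus relative to the typical transcript, and a global change in translation could not be seen. The RPF and mRNA terms of the same fit each had 0 transcripts past an adjusted p-value of 0.05 in edgeR, with 191 (1.83%) and 233 (2.23%) at an unadjusted p-value under 0.05.

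The precision of a single transcript's TE change limits what this result covers. The standard deviation of the fitted TE change across transcripts was 0.72 on the log2 scale, and the median standard error of 1 transcript was 0.73. The RPF term had a standard deviation of 0.49 and a median standard error of 0.51, and the mRNA term 0.54 and 0.52. The spread of changes across transcripts was thus about the size of the error of each. A TE change of more than 1 in size was fitted for 1498 transcripts (14.4%), and of more than 2 for 146. The median half-width of the 95% interval was 1.54, and for 4971 transcripts (47.6%) the whole interval lay between −2 and 2. For the remainder, a change of 2 or more in at least 1 direction lay inside the interval and was not excluded.

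The 204 transcripts were split evenly by the term that contributed more. The RPF change was the larger in 102 and the mRNA change in 102, near the split of all 10437 transcripts (5115 and 5322). Transcripts with lower TE were led by RPF more often (68 of 118) than those with higher TE (34 of 86), a difference that was not tested. The RPF term had an unadjusted p-value under 0.05 in 69 of the 204 and the mRNA term in 60. Both did so in 0, and neither in 75. RPF and mRNA had opposite signs in 190 of the 204, against 49.5% of all transcripts; an extreme difference between 2 terms selects for opposite signs, so this is a description of the set. Only 73 of the 204 were counted 10 or more times in all 8 libraries, against 6310 of all 10437.

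**Figure D2:**
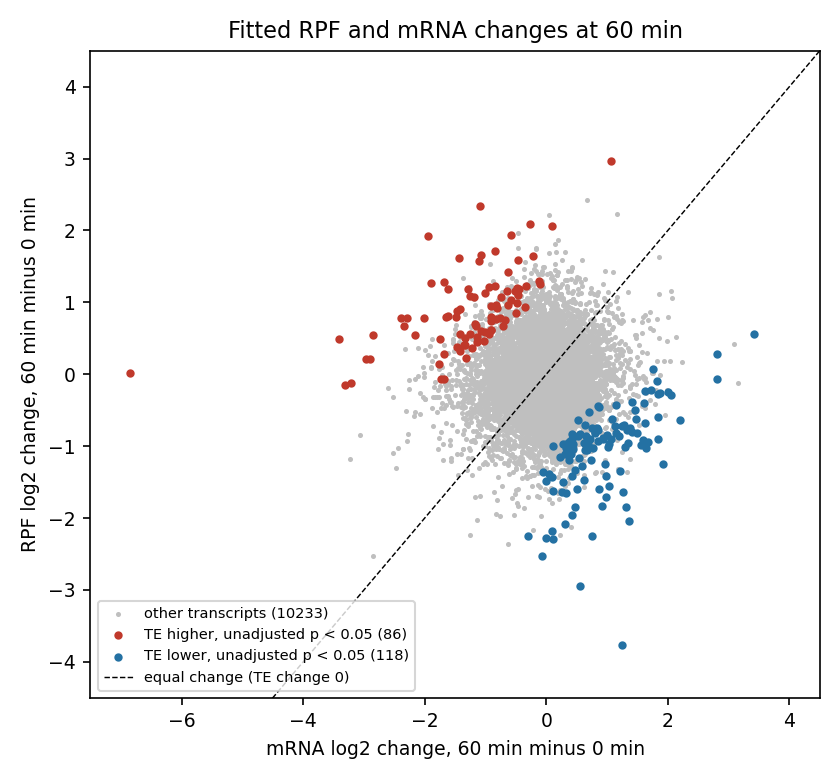
Fitted RPF log2 change (vertical) against mRNA log2 change (horizontal), 60 min minus 0 min, for 10437 transcripts; the dashed line is an equal change in both assays, red points are the 86 transcripts with higher TE and blue points the 118 with lower TE at an unadjusted p-value under 0.05. The coloured points lie along both sides of the cloud, and the single point far to the left is ENST00000274353, whose mRNA change was −6.85.

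Separated ranges were counted on the CPM values, which share the TMM scaling of the edgeR fit. The RPF to mRNA ratio of a time was given its full range over its 2 RPF and 2 mRNA libraries. The range at 60 min lay wholly above that at 0 min for 532 transcripts (5.1%) and wholly below for 837 (8.02%). Of these, all RPF libraries were higher and all mRNA libraries lower for 155 transcripts (1.49%), and the reverse held for 295 (2.83%). Among the 204 transcripts at an unadjusted p-value under 0.05, the ranges were separate for 64 of the 86 with higher TE and 114 of the 118 with lower TE. Small p-values from the same libraries select for separate ranges, so this too only describes the set.

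The rule for examples took the smallest unadjusted p-values in each direction among the 8631 transcripts with a mean of at least 10 CPM in both assays. Such a rule selects for groups that lie far apart for their spread, so separation in the examples below describes the picks and tests nothing. The first transcript with lower TE was ENST00000398844. Its RPF level was 25.5 and 37.9 CPM at 0 min (27 and 34 counts) and 15.3 and 10.97 CPM at 60 min (14 and 8 counts). Its mRNA level was 10.2 and 10.9 CPM at 0 min (8 counts in each library) and 22.4 and 19.2 CPM at 60 min (20 and 21 counts). All footprint values at 60 min were thus below those at 0 min while all mRNA values were above, with no overlap in either assay. The RPF mean was 31.7 ± 8.77 CPM (SD, n = 2) before and 13.1 ± 3.05 CPM after 60 min, and the mRNA mean was 10.6 ± 0.491 and 20.8 ± 2.27 CPM. The log2 TE change was −2.21 (SE 0.70; edgeR adjusted p = 0.9999, unadjusted 0.00565).

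The second, ENST00000303596, had a like pattern in footprints and a smaller difference in mRNA. Its RPF level was 46.2 and 52.4 CPM at 0 min (49 and 47 counts) against 20.7 and 13.7 CPM at 60 min (19 and 10 counts). Its mRNA level was 35.8 and 39.6 CPM at 0 min (28 and 29 counts) and 43.8 and 47.6 CPM at 60 min (39 and 52 counts). The RPF groups were separated by more than the spread within either, at 49.3 ± 4.34 CPM (SD, n = 2) and 17.2 ± 4.97 CPM, and the mRNA groups did not overlap but lay closer, at 37.7 ± 2.69 CPM and 45.7 ± 2.74 CPM. Its log2 TE change was −1.77 (SE 0.57, 95% interval −2.97 to −0.57; edgeR adjusted p = 0.9999, unadjusted 0.0063). The RPF term was −1.49 (SE 0.41) and the mRNA term 0.28 (SE 0.39). TE changes in replicates 1 and 2 alone were −1.34 and −2.01.

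The first transcript with higher TE, ENST00000269299, had RPF levels of 49.1 and 59.0 CPM at 0 min (52 and 53 counts) and 173 and 165 CPM at 60 min (158 and 120 counts). The footprint groups were far apart relative to their spread, which the rule favours, at 54.0 ± 7.06 CPM (SD, n = 2) and 169 ± 5.63 CPM. Its mRNA level was 119 and 51.9 CPM at 0 min (93 and 38 counts) and 81.9 and 65.1 CPM at 60 min (73 and 71 counts), so the 60 min mRNA values lay between the 2 values of 0 min. The log2 TE change was 1.86 (SE 0.60, 95% interval 0.59 to 3.13; edgeR adjusted p = 0.9999, unadjusted 0.00651). The RPF term was 1.64 (SE 0.43) and the mRNA term −0.22 (SE 0.42). Without mRNA 0 min replicate 1, the higher of those 2 values, the TE change was 1.09 with an unadjusted edgeR p-value of 0.0975. Its TE change was 2.29 in replicate 1 and 1.13 in replicate 2.

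The next, ENST00000274353, had mRNA libraries that differed by orders of magnitude. Its mRNA count was 3 and 4057 in the 0 min replicates and 41 and 3 in the 60 min replicates, while its RPF count was 606 and 3030 at 0 min and 1114 and 2018 at 60 min. In CPM, the mRNA level was 3.84 and 5543 at 0 min, 46.0 and 2.75 at 60 min, and 5848 and 3251 at 360 min. Replicate 2 of 0 min thus lay with the 360 min libraries, and the other 3 libraries of 0 and 60 min lay far below. Its footprint groups overlapped and so did its mRNA groups. The fitted log2 TE change was 6.86 (SE 2.29; edgeR adjusted p = 0.9999, unadjusted 0.00805), but −2.61 without replicate 2 of mRNA at 0 min. The TE change was −1.84 in replicate 1 and 9.74 in replicate 2. Replicate 2 of mRNA at 0 min was at least 10 times every other mRNA library of 0 and 60 min, at 20 or more counts, for 6 transcripts, 4 of which were among the 204; replicate 1 of mRNA at 60 min stood apart in this way for 1 transcript, and the other 6 libraries for 0.

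**Figure D3:**
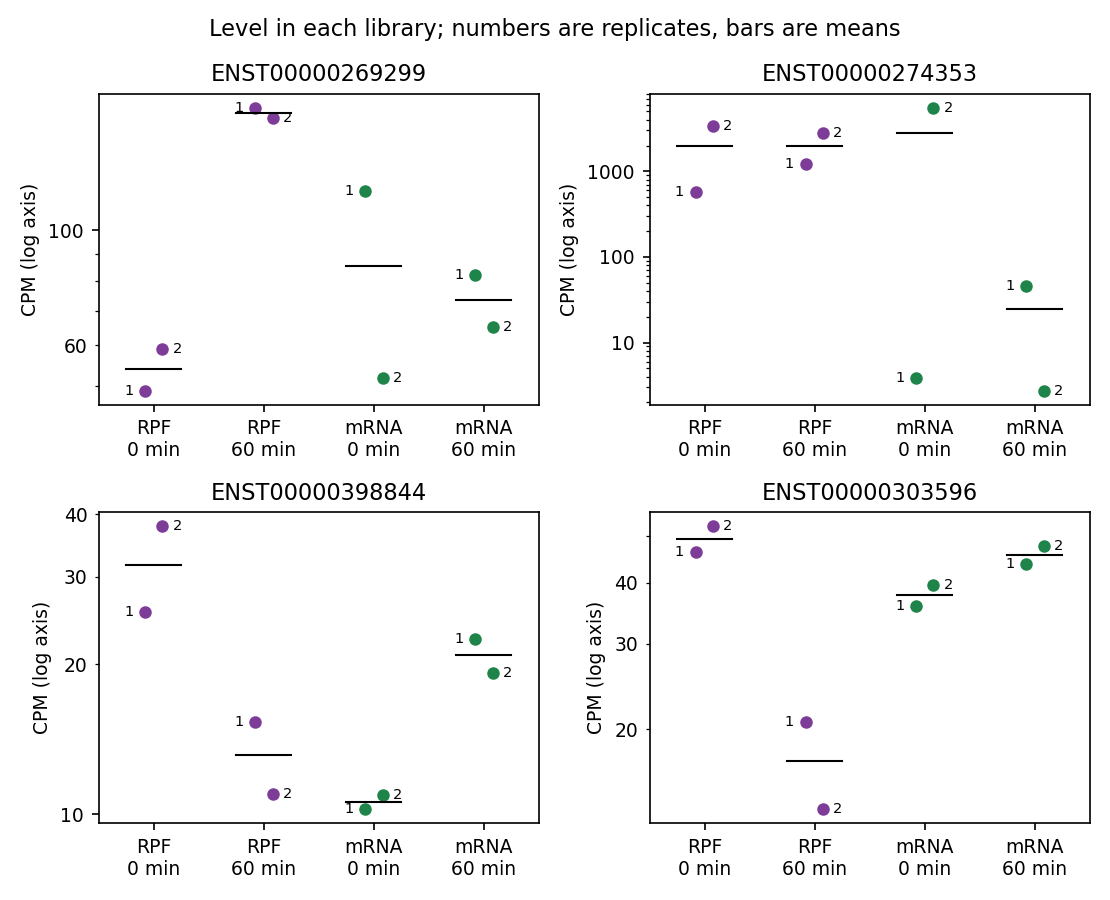
Level in CPM (log axis) of the 2 transcripts with the smallest p-values in each direction, in each RPF (purple) and mRNA (green) library at 0 and 60 min; digits beside the points are replicate numbers and bars are means of 2. The upper panels have higher fitted TE and the lower panels lower, and in the upper right panel the mRNA replicates of 0 min lie at 3.84 and 5543 CPM.

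The 10 transcripts ranked first in each direction differed in how they were built up. Log2 TE changes ran from 1.85 to 6.86 for the 10 higher transcripts and from −2.90 to −1.77 for the 10 lower ones, with unadjusted edgeR p-values between 0.00565 and 0.0126. Among the 10 lower transcripts, all 10 had RPF values of the later time wholly above or wholly below those of the earlier time. The mRNA values were separated in this way for 8, and the RPF term was the larger for 7. Among the 10 higher transcripts these numbers were 5, 5 and 2, and for 4 of them the mRNA replicates of 0 min differed by at least 10 times. Over all 10437 transcripts the RPF term was the larger for 5115. How often RPF values alone or mRNA values alone were separated over all transcripts is not given here, so those counts have no baseline. Ranking by p-value also selects for separated values, so the counts of both directions describe the picks only. Counts below 10 occurred in 8 of the 10 lower and 3 of the 10 higher transcripts. When each of the 12 libraries of the series was left out in turn, only 9 of the 204 transcripts kept an unadjusted p-value under 0.05 and their direction every time. Of these, 8 had lower TE, among them ENST00000398844 and ENST00000303596, and log2 changes from −2.82 to −1.77. Only 1 of the 9 was counted 10 or more times in all 8 libraries. The 9 were picked from the 204 and these fits share most of their libraries, so no direction is drawn from them.

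TE changes were then compared between classes of transcripts. The transcripts were first divided into 5 classes of equal size by the lower summed count of the 2 assays. The classes had median log2 TE changes from 0.03 in the lowest (20 to 39 counts) to −0.11 in the highest (209 counts or more). Medians of replicates 1 and 2 were −0.10 and 0.08 in the lowest class, −0.10 and −0.03 in the next, −0.01 and −0.12 in the middle, 0.0087 and −0.23 in the class above it, and 0.06 and −0.36 in the highest. Replicate 2 was thus above replicate 1 in the lower 2 classes and below it in the upper 3. The median standard error was 1.00 in the lowest class and 0.63 in the highest, and the share at an unadjusted p-value under 0.05 was 3.16% and 0.814%.

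Ribosome load was taken from the 360 min libraries, which are outside the contrast but share its scaling and its estimate of spread, as the difference of log2 CPM between RPF and mRNA. Differences between replicates 1 and 2 at 360 min were also correlated with those of the contrast libraries. The values ran from −0.325 (RPF at 360 min and mRNA at 60 min) to 0.289 (mRNA at 60 and 360 min). Load and TE change may therefore not be independent. The median TE change at 60 min was −0.08 in the class with the lowest load and 0.04 in the class with the highest (1.04 or more), and −0.10, −0.07 and −0.06 in those between. Transcripts with higher and lower TE at an unadjusted p-value under 0.05 numbered 18 and 23 in the class with the lowest load, then 8 and 29, 18 and 20, 14 and 27, and 28 and 19 in the class with the highest. Both directions together made up between 1.77% and 2.25% of a class, near the 1.95% of all transcripts, and differences between classes were not tested. In the lowest class the medians were 0.06 in replicate 1 and −0.26 in replicate 2, and in the highest −0.01 and −0.0024. In both ways of forming classes, the medians differed between classes by less than the replicate numbers differed within the most divergent class. Load is also itself measured, and the 360 min mRNA libraries were shallower, so transcripts near a class edge are placed with error.

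**Figure D4:**
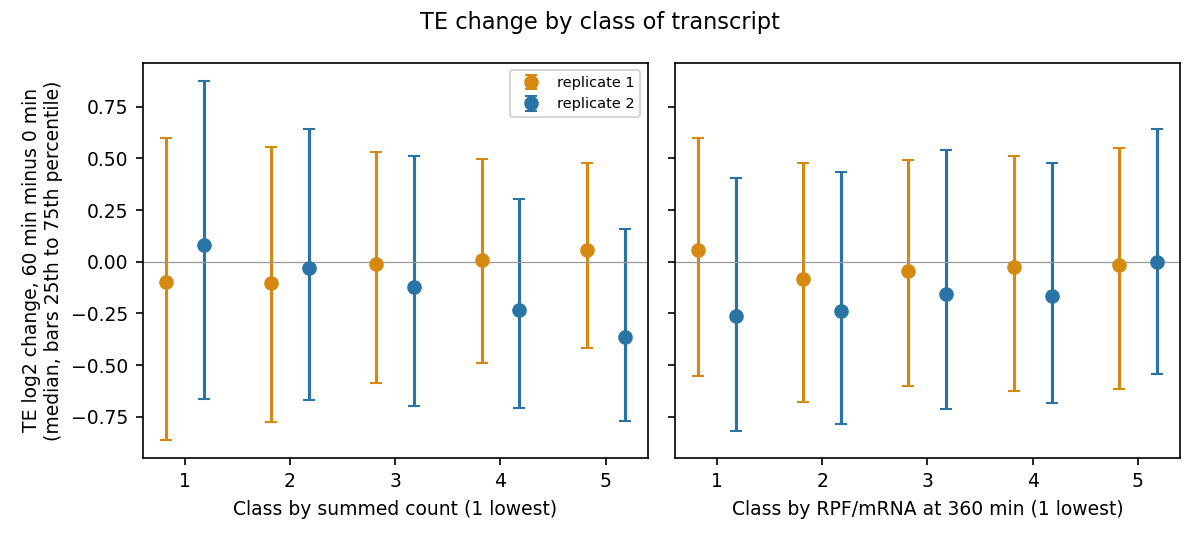
Median log2 TE change at 60 min in replicate 1 (orange) and replicate 2 (blue) for 5 classes of transcripts by summed count (left) and by RPF to mRNA ratio at 360 min (right), with bars from the 25th to the 75th percentile over transcripts. In the highest class by count the replicates have medians of 0.06 and −0.36, and all bars cross 0.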

How the data were processed

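Counts per Ensembl transcript were deposited by the authors for each library, as raw counts without normalization per the file headers and values, and transcripts without a count were not listed and were set to 0. The submitters' processing notes name cutadapt 2.8, Bowtie 1.2.3 and STAR 2.7.10a with no role. Genome build, annotation, counted region, use of strand and treatment of multiply mapping reads are not given in the sources used here, so counts of near-identical transcripts are uncertain. Per the labels' protocols, RPF were gel-selected fragments of 25 to 35 nt.

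Counts were fitted in R 4.3.3 with edgeR 4.0.16 (estimateDisp, glmQLFit, glmQLFTest), all 12 libraries in 1 fit with a term for each group of assay and time, library totals scaled by TMM within each assay. TE is the interaction of assay and time, adjusted by Benjamini-Hochberg over all 10437 transcripts. A standard error was obtained from the change and its F statistic (absolute change over root F). Changes within a replicate number used log2 CPM with a prior count of 2. The pipeline was also run on simulated counts, with changes put into the RPF libraries of 60 min alone. Its recovery rate is not given here, so no statement on the power of the reported test is drawn from it. The members, lists and tests were chosen with earlier results of these data known. Examples were the smallest unadjusted p-values in each direction at a mean of 10 CPM or more in each assay; the planned gene lists and RefSeq sequences could not be joined to the identifiers. Differences between replicates 1 and 2 correlated between times at 0.229, 0.260 and 0.194 in RPF, so RPF numbers pair the libraries by the rule of a correlation above 0.1 in every pair. In mRNA these correlations were −0.351 (0 and 60 min), −0.0784 (0 and 360 min) and 0.289 (60 and 360 min). Between RPF and mRNA they were −0.0944 at 0 min and 0.0156 at 60 min. By this rule the numbers pair neither the mRNA libraries across times nor RPF with mRNA, so TE by replicate number rests on matching by name. The reported fit, with its standard errors and p-values, has no replicate term, and the replicate block is an alternative.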

Additional observations from a re-analysis of the deposited data

How the results depend on the processing

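Of 25 alternative fits, 24 also gave 0 TE calls at an adjusted p-value of 0.05. With no minimum count, edgeR called 3 transcripts in TE, 1 in RPF and 13 in mRNA, and 430 had an unadjusted TE p-value under 0.05. ENST00000274353 was among the 3 there. DESeq2 called 1 transcript in RPF and had 109 at an unadjusted TE p-value under 0.05, and a minimum of 10 counts in each of the 8 libraries gave 95 of the 6310 tested. Leaving out 1 library at a time moved the count of 204 to between 123 (without RPF 60 min replicate 2) and 364 (without mRNA 0 min replicate 1). Calls then ranged from 0 to 1 in RPF and from 0 to 5 in mRNA, the highest again without mRNA 0 min replicate 1, and were 0 in TE; the remaining sample of a group is assumed to vary like the others. Between 78 and 199 of the 204 transcripts were shared with these fits. Only the TE change of ENST00000274353 reversed, with a range from −2.61 (without mRNA 0 min replicate 2) to 9.84 (without mRNA 60 min replicate 1) over the libraries left out; the other 3 transcripts kept their direction in every alternative that tested them, ENST00000269299 ranging from 1.09 (without mRNA 0 min replicate 1) to 2.28. The median TE change was −0.18 without mRNA 0 min replicate 1, −0.0046 with RLE size factors and −0.0992 with library totals, and turned positive with DESeq2 (0.02) and without RPF 0 min replicate 2 (0.01). With the replicate block, 0 transcripts passed in TE, RPF and mRNA, and 240 had an unadjusted TE p-value under 0.05. A block with the mRNA numbers crossed at 60 min was fitted to the 8 libraries and added after seeing the data. It gave 0 TE calls and 566 of 10437 transcripts at an unadjusted edgeR p-value under 0.05. The count was 219 with the numbers as labelled and 292 without a block in the same 8 libraries. The crossing followed the correlations of these same libraries, which favours a smaller residual spread and a higher count. Its count therefore tests nothing about the labels. The causes of these shifts were not tested.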
